A study of Mus musculus with 28 samples.

Results

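Whole testis and the germ cells sorted from the same animal were compared in the 3 mice that had both kinds of library, mice 178, 648 and 286. The comparison covers 14 of the 28 libraries of the series, 3 of whole testis and 11 of sorted cells, chosen by mouse number and not by any measured value. For each gene and mouse, the whole testis value was set against the mean of the sorted values on the scale log2(RPKM + 0.1), where RPKM is reads per kilobase of transcript, scaled to the mapped reads of the library. A positive difference therefore means a higher level in whole testis, and the pseudocount makes differences of weakly expressed genes smaller than their ratios. The study asked how loss of Csmd1, a gene for a complement regulatory protein, affects the gonads of mice.

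Mice 178 and 648 were labelled WT and mouse 286 was labelled KO, and all were labelled C57BL/6. The knockout allele replaces exon 1 of Csmd1 and part of the following intron by a lacZ and neomycin cassette, and the methods describe a mixed background of 129SvEvBrd and C57BL/6. The animals were untreated males, and the labels give no age. The methods describe the sorted males as sexually mature and state a single age. Whether this covers mice 648 and 286 could not be checked here. The paper also reports expression in sexually immature whole testes, and the labels mark no library as immature. Hoechst staining separated 4 gates, which the labels name spermatids, spermatogonia, secondary spermatocytes and primary spermatocytes. Mice 178 and 648 had all 4 gates, while mouse 286 had no primary spermatocyte library, so it contributed 3 sorted libraries and was also the only knockout. In values over all gates, the missing gate and the genotype both set mouse 286 apart from the other mice. Counts and some list medians are therefore also given with the gates that all 3 mice have. This takes primary spermatocytes out of the sorted mean but not out of whole testis. With a single knockout, genotype and individual mouse cannot be told apart. Per the methods, the testes of a mouse were dissociated with enzymes, and then a single testis was used whole while the other was sorted, so both kinds of library had gone through digestion. RNA of whole testis and of sorted cells was extracted with different kits of the same maker, and sort and kit cannot be told apart.

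The testis holds germ cells at every step of sperm formation together with somatic cells that nurse and regulate them. Sertoli cells lie inside the tubules and support the germ cells, Leydig cells between the tubules make testosterone, and peritubular myoid cells surround the tubules with a contractile layer. Blood vessels, macrophages and the blood itself are also present in the intact organ. Hoechst fluorescence separates germ cells by DNA content and chromatin state, and handling of live cells is known to switch on immediate early genes within a short time.

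Between 36752047 and 61687944 mapped reads stood behind each of the 14 libraries (median 49333853), as estimated from the steps between low RPKM values. Of the low values checked, 93.2% to 95.1% fell within 0.06 of a whole read, where 12% would by chance. The whole testis library of mouse 178 stood apart from the other 13. It had 75.4% of genes at 0.1 RPKM or more, against 47.1% to 59.6% in the others, and its column summed to 714705.8 RPKM, against 889763.3 to 1250041.4. The counts of genes that passed, and the medians of several lists, are therefore also given without it. Levels of a gene are sums over its transcripts, in which a read shared by several transcripts is counted more than once, so levels are best compared between libraries and only loosely between genes.

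Csmd1 was measured first, as the targeted gene. Mouse 178 had 1.25 RPKM in whole testis, 1.66 in spermatids, 0.713 in secondary spermatocytes, 0.248 in spermatogonia and 0.132 in primary spermatocytes. Mouse 648 had 0.033 to 0.18 RPKM in all 5 libraries. The labelled knockout, mouse 286, had 0.396 RPKM in whole testis, 1.21 in spermatids, 0.691 in secondary spermatocytes and 0.049 in spermatogonia. In each kind of library they share, the labelled knockout thus lay above wildtype mouse 648 and below wildtype mouse 178. The allele replaces exon 1 and part of the intron after it and leaves the other exons in place, so the level summed over the gene does not check the genotype.

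Few genes passed the test of whole testis against all sorted cells of the 3 mice. Of 22280 genes tested with limma, 4 were higher in whole testis at an adjusted p under 0.05 (0.018% of genes tested) and 1 was lower (0.00449%), while 923 genes had an unadjusted p under 0.05. All 4 higher genes encode haemoglobin chains. With only the gates that all 3 mice have, 24 genes were higher and 7 lower, all 31 with the same sign in every mouse and with the 5 genes above among them. At that setting primary spermatocytes are absent from the sorted mean but not from whole testis. Piwil1, Gm26741 and Gm3371, whose highest sorted level was in primary spermatocytes of mice 178 and 648, passed there. Car7 and 1520401A03Rik, without that peak in both mice, also did. The median difference over all genes was -0.05 in mouse 178, 0.05 in mouse 648 and 0.13 in mouse 286, with standard deviations across genes of 1.03, 0.71 and 1.05. The mice differed from each other at the level of whole profiles. Across the 22280 genes, which are not independent replicates, the differences of mouse 178 had a Pearson correlation of -0.11 with those of mouse 648 and of -0.2 with those of mouse 286, and mice 648 and 286 had 0.2. With 3 differences an exact sign-flip permutation test cannot give a two-sided p below 0.25, so each call rests on the spread that limma pools over genes, and p-values measure the spread between 3 mice. Without mouse 178 no gene passed in either direction (0 and 0), with 2083 genes at an unadjusted p under 0.05 and a smallest adjusted p of 0.279.

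Haemoglobin transcripts were plentiful in whole testis and far lower in the sorted cells. These genes encode the chains of the oxygen carrier of red blood cells, which carry no nucleus in mammals. The alpha genes Hba-a1 (chromosome 11, 32283511 to 32284465, plus strand, GRCm38) and Hba-a2 (chromosome 11, 32296489 to 32297298, plus strand) are neighbouring copies with nearly identical sequence, and reads from one cannot be told reliably from the other. The beta genes Hbb-bs (chromosome 7, 103826534 to 103828096, minus strand) and Hbb-bt (chromosome 7, 103812524 to 103813996, minus strand) are likewise close relatives. Summed over the 4 genes, mouse 178 had 32.9 RPKM in whole testis and 2.49, 2.12, 1.65 and 0.3 in spermatids, spermatogonia, secondary and primary spermatocytes. Mouse 648 had 106 RPKM in whole testis and 0.739, 0.169, 0.275 and 0 in the same gates. Mouse 286 had 255 RPKM in whole testis and 6.43, 7.02 and 2.42 in spermatids, spermatogonia and secondary spermatocytes. The whole testis sum was thus 13.2, 144 and 36.3 times the highest sorted sum of the same mouse, and no sorted library reached any whole testis library.

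Each haemoglobin gene taken alone gave the same picture. Hba-a2 had 14.7, 52.4 and 89.5 RPKM in whole testis of mice 178, 648 and 286, and at most 0.827, 0.223 and 3.65 in their sorted cells. Its mean difference was 6.14 (SE 0.531, n = 3 mice, adjusted p = 5.5e-10), positive in 3 of 3 mice. Hbb-bs had 10.2, 30.2 and 113 RPKM in whole testis and at most 1.5, 0.181 and 2.92 in sorted cells. Its mean difference was 6.08 (SE 0.53, adjusted p = 5.5e-10). Hba-a1 had 7.61, 22.4 and 43.1 RPKM in whole testis, with a mean difference of 5.31 (SE 0.533, adjusted p = 2.2e-08). Hbb-bt was the weakest, with 0.523, 1.12 and 9.76 RPKM in whole testis and at most 0.073, 0 and 0.232 in sorted cells, and a mean difference of 3.72 (SE 0.617, adjusted p = 0.0022). Without mouse 178 the differences of Hba-a2, Hbb-bs, Hba-a1 and Hbb-bt were 6.77, 6.92, 6.08 and 4.36, but their adjusted p-values were 0.39, 0.28, 0.39 and 0.52. The call of Hba-a1 was also lost with no filter on low values (adjusted p = 0.075). That of Hbb-bt was lost in 10 of 15 alternatives, among them those without mouse 648 (adjusted p = 0.064) or 286 (0.13), a pseudocount of 0.01 RPKM (0.12) or 1 RPKM (1, with a difference of 1.62), no filter (0.55) and quantile normalization (0.8). In bulk samples such as these, fewer cells of a type and less RNA per cell cannot be told apart.

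Other red blood cell genes were mostly positive but did not pass the test. Of the 7 red blood cell genes tested, 4 passed, all of them haemoglobins. Alas2, the enzyme that starts haem synthesis in red cell precursors, had 7.03 RPKM in whole testis of mouse 178 and 6.1 in its secondary spermatocytes, and its mean difference was 1.2 (adjusted p = 1). Slc4a1, the band 3 anion exchanger of the red cell membrane, was positive in all 3 mice (2.19, 0.45 and 1.64, mean 1.43, adjusted p = 1), although in mouse 286 it had 2.24 RPKM in whole testis and 3.25 in spermatids. Epb42, a membrane skeleton protein, had differences of 2.04 and 1.01 in mice 178 and 286 and of -0.9 in mouse 648, where it was listed at 0 in whole testis. Whole testis lay above every sorted library for 7 of the 7 genes in mouse 178, 4 in mouse 648 and 6 in mouse 286, against 11%, 4.8% and 26.7% of all genes.

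**Figure D1:**
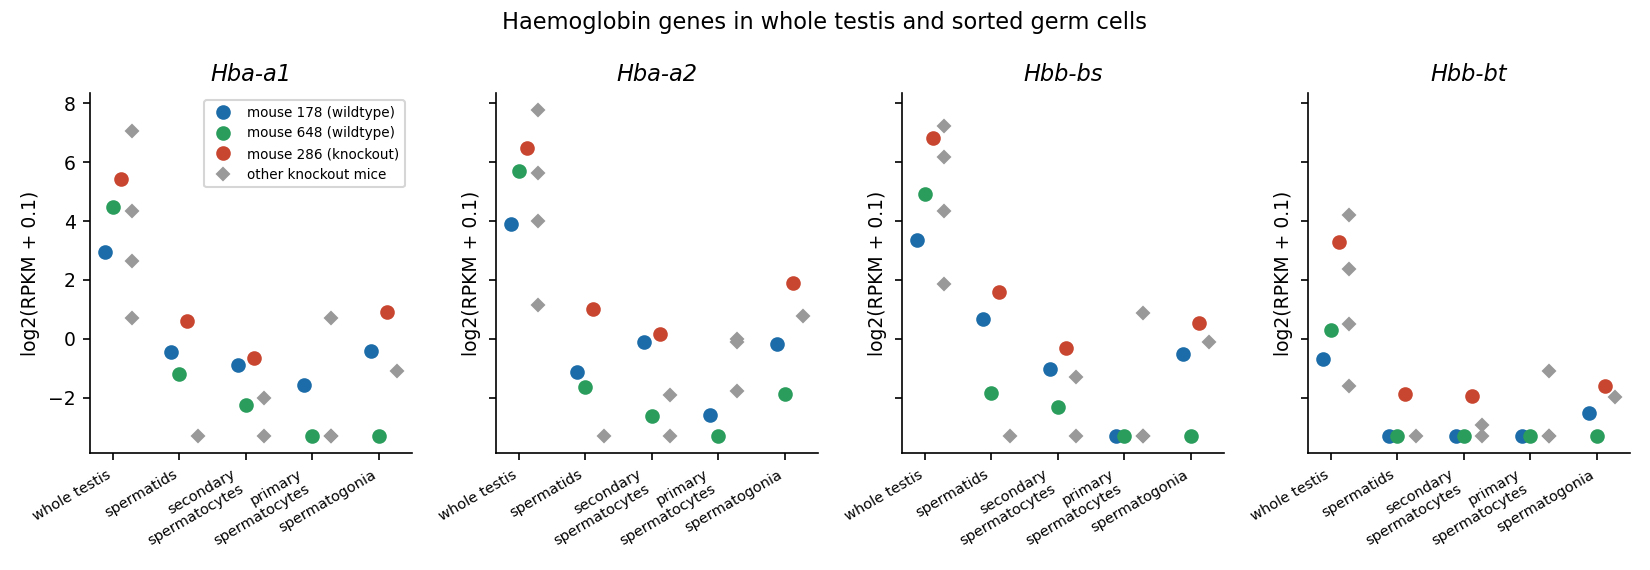
Level of each haemoglobin gene, as log2(RPKM + 0.1), in whole testis and in each sorted gate; each point is 1 library, coloured by mouse, and grey diamonds are knockout mice that had only 1 kind of library. In each of the 4 panels the 3 coloured whole testis points lie above every sorted point of the same mouse, and mouse 178 is the lowest of the 3.

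A single gene was called lower in whole testis, the antisense gene Gm17590 (chromosome 5, 3472861 to 3480873, minus strand), a non-coding gene of unknown function. It had 0.2 RPKM in whole testis of mouse 178 against 1.26 to 2.7 in its sorted cells. In mouse 648 it was listed at 0 in whole testis against 0.372 to 4.08 after sorting, and in mouse 286 at 0 against 0.569 to 5.79. The whole testis value lay below every sorted value in each of the 3 mice, with a mean difference of -3.52 (SE 0.503, adjusted p = 0.00012). In each mouse its highest level was in spermatogonia. The call was lost in 5 of 16 alternatives, with a pseudocount of 1 RPKM (adjusted p = 0.95), no filter (0.42), quantile normalization (0.066), without the spermatogonia gate (0.2) and without mouse 178 (0.53). Whether reads were counted by strand is not given in the sources used here, so reads of a gene on the other strand cannot be told apart from its own. In the other knockout mice its difference was 0.34 (adjusted p = 0.77).

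Sertoli cell genes were higher in whole testis than in the mean of the sorted cells by a small amount in nearly all cases, and none passed the test. Of the 16 genes listed, 14 were tested, 13 of these were positive in all 3 mice (11.4% of all genes were), and the median difference was 0.78 in mouse 178, 1.39 in mouse 648 and 0.81 in mouse 286, against all-gene medians of -0.05, 0.05 and 0.13. Clu, which encodes clusterin and was the most abundant gene of the list, had 288 RPKM in whole testis of mouse 178, 53.8 in spermatids, 318 in spermatogonia, 403 in secondary spermatocytes and 28.5 in primary spermatocytes. Mouse 648 had 679 RPKM of Clu in whole testis and 59, 559, 226 and 135 in the same gates. Mouse 286 had 723 RPKM in whole testis and 277, 323 and 638 in spermatids, spermatogonia and secondary spermatocytes. The whole testis was therefore the highest library for Clu in mice 648 and 286 but lay under 2 sorted gates in mouse 178, and the mean difference of 1.37 (SE 0.473) had an adjusted p of 0.84.

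The sorted gates thus held much of the Sertoli signal of whole testis. The summed level of the list was 398 RPKM in whole testis of mouse 178 against 444 in spermatogonia and 536 in secondary spermatocytes. It was 852 RPKM in whole testis of mouse 648 against 763 in spermatogonia, and 952 in whole testis of mouse 286 against 874 in secondary spermatocytes. Spermatids of mice 178 and 648 had the lower sums of 73.6 and 78.4 RPKM, and their primary spermatocytes had 40.8 and 173. Spermatids of mouse 286 had more, 361 RPKM. Clu made up most of each of these sums. Wt1, a transcription factor that Sertoli cells need to keep their identity, had 45.6 RPKM in whole testis of mouse 178 and 38.7 in its spermatogonia, and 74 in whole testis of mouse 286 but 80.8 in its secondary spermatocytes. Whole testis lay above every sorted library for 2, 9 and 7 of the 14 genes in mice 178, 648 and 286, against 11%, 4.8% and 26.7% of all genes. Sox9, the factor that directs Sertoli cell fate, was the only gene of the list above every sorted library in each of the 3 mice (0.251% of all genes were), by as little as 0.01 on the log2 scale in mouse 178. Cst12, which encodes a cystatin, had its widest difference in mouse 648, with 32 RPKM in whole testis and 16.9 in spermatogonia. Trf, which encodes the iron carrier transferrin, went against this in mouse 648, with 4.17 RPKM in whole testis and 34.4 in spermatogonia. Rhox5, a homeobox gene of Sertoli cells, was listed at 0 in all 14 libraries.

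Leydig cell genes showed little difference between whole testis and the mean of the sorted cells. The 12 genes tested had median differences of 0.18, 0.14 and 0.52 in mice 178, 648 and 286, and none passed. The median over the list was 0.12, but -0.48 with the log of the mean RPKM of the gates. It was 0.55 without the spermatogonia gate and 0.26 without mouse 178. Insl3, the insulin-like hormone made by Leydig cells, had 10.3 RPKM in whole testis of mouse 178 and 7.06, 7.82, 36.3 and 4.45 in spermatids, spermatogonia, secondary and primary spermatocytes. In mouse 648 it had 2.99 RPKM in whole testis and 1.43, 93.3, 12.2 and 2.16 in the same gates. In mouse 286 it had 3.96 RPKM in whole testis and 1.05, 4.37 and 6.41 in spermatids, spermatogonia and secondary spermatocytes. Insl3 was therefore higher in at least 1 sorted gate than in whole testis in each mouse, and its mean difference was -0.32 (SE 0.487, adjusted p = 1).

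Star and the steroid enzymes differed between mice. Star, which moves cholesterol into mitochondria, was low throughout, with 0.442, 0.951 and 0.691 RPKM in whole testis of mice 178, 648 and 286 and up to 0.961, 5.38 and 0.589 in a sorted gate. Cyp17a1, an enzyme of androgen synthesis, reached 160 RPKM in spermatogonia of mouse 648 against 9.87 in whole testis, and 25 in secondary spermatocytes of mouse 178 against 5.56. Among sorted gates, secondary spermatocytes had the highest level of 11 of the 12 genes in mouse 178 and of 10 of 12 in mouse 286, against 13.1% and 30.5% of all genes, while spermatogonia had the highest level of all 12 in mouse 648, against 47.1%. Whole testis lay above every sorted library for 0, 0 and 5 of the 12 genes in mice 178, 648 and 286, against 11%, 4.8% and 26.7% of all genes. Among the 5 were Star, the side-chain cleavage enzyme Cyp11a1 (1.27 against at most 1.1 RPKM) and the testosterone-forming enzyme Hsd17b3 (1.17 against at most 0.663). The summed list was 104, 94.2 and 103 RPKM in whole testis of the 3 mice, led there by the lipoprotein receptor gene Scarb1. In the highest sorted gate it was 210, 736 and 125 RPKM. In that gate of mouse 648, spermatogonia, Prlr (177 RPKM) and Cyp17a1 (160) lay above Scarb1 (152).

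**Figure D2:**
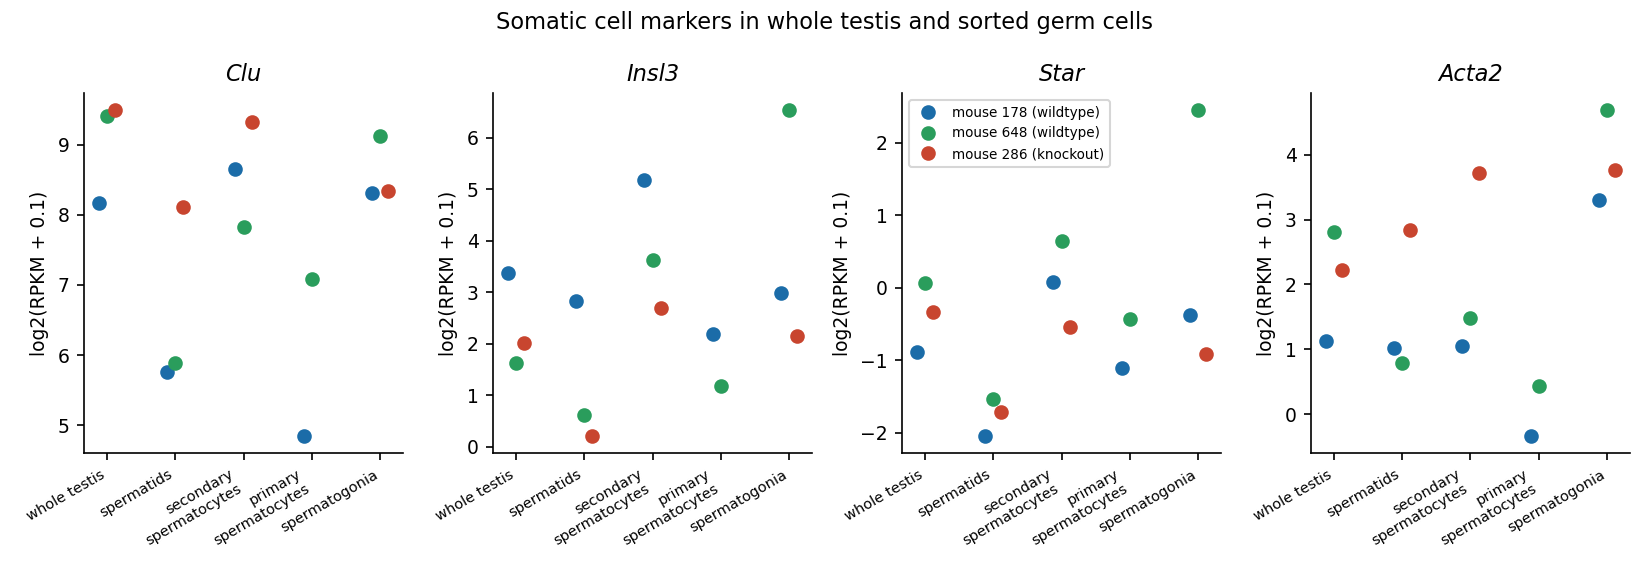
Level of 4 somatic marker genes, as log2(RPKM + 0.1), in whole testis and in each sorted gate; each point is 1 library, coloured by mouse, and mouse 286 has no primary spermatocyte library. Clu peaks in whole testis in mice 648 and 286 and in a sorted gate in mouse 178, Insl3 and Acta2 peak in a sorted gate in each mouse, and Star does in mice 178 and 648, with 93.3 RPKM of Insl3 in spermatogonia of mouse 648.

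Genes of peritubular and stromal cells were highest in the spermatogonia gate in most cases. Among sorted gates, spermatogonia had the highest level for 14 of 15 genes in mouse 178, 15 of 15 in mouse 648 and 11 of 15 in mouse 286, against 37.1%, 47.1% and 39% of all genes. Acta2, the smooth muscle actin of peritubular myoid cells, had 2.09 RPKM in whole testis of mouse 178 and 1.93, 9.75, 1.98 and 0.687 in spermatids, spermatogonia, secondary and primary spermatocytes. Mouse 648 had 6.9 RPKM in whole testis and 1.63, 25.8, 2.69 and 1.25 in the same gates. Mouse 286 had 4.58 RPKM in whole testis and 7.06, 13.5 and 13.1 in spermatids, spermatogonia and secondary spermatocytes, so that whole testis was its lowest library. The mean difference of Acta2 was -0.13 (SE 0.493, adjusted p = 1).

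Matrix genes of the same list were further apart. Dcn, which encodes the proteoglycan decorin, had 25.8 RPKM in whole testis of mouse 648 and 645 in its spermatogonia, 5.02 and 96.9 in mouse 178, and 7.91 and 118 in mouse 286. Sparc, a matrix protein and the most abundant gene of the list, was positive in all 3 mice (0.49, 0.68 and 0.41) although its highest level was in spermatogonia of mouse 648, at 1300 RPKM. The list had median differences of 0.1, -0.25 and -1.3 in mice 178, 648 and 286, and its sum in whole testis was 213, 360 and 416 RPKM against 705, 2958 and 725 in spermatogonia. Secondary spermatocytes of mouse 286 had nearly as much, 673 RPKM, and more than its spermatogonia of Sparc, Col1a1, Col1a2 and Myh11. Without the spermatogonia gate the median over the list was 0.33 instead of -0.57. No gene of the list passed the test in either direction.

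Endothelial and macrophage genes differed between mice. The 10 endothelial genes had median differences of 0.84, -0.08 and -0.46 in mice 178, 648 and 286, and none passed. The median over the list was 0.06, and -0.3 without mouse 178. Emcn, the vessel lining protein endomucin, had 0.718 RPKM in whole testis of mouse 178 against at most 0.412 after sorting, but 0.461 in mouse 286 against 2.13 in spermatogonia. Egfl7, a secreted factor of vessels and the most abundant of the list, had 6.94 RPKM in whole testis of mouse 178 and 26.1 in its spermatogonia. The summed endothelial list was 22.5, 4.23 and 9.68 RPKM in whole testis and 33.6, 27.1 and 26.5 in spermatogonia. Spermatids of mouse 178 had 29.1. Spermatogonia had the highest sorted level of 4, 7 and 6 of the 10 genes in mice 178, 648 and 286, against 37.1%, 47.1% and 39% of all genes. Whole testis lay above every sorted library for 5, 0 and 0 of the 10, against 11%, 4.8% and 26.7% of all genes.

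The 15 macrophage genes had median differences of -0.16, 0 and -0.65, and none passed. The median over the list was -0.15, but -1.41 with the log of the mean RPKM of the gates and 0.21 without the spermatogonia gate. Cd74 and H2-Aa, which serve antigen presentation, had 4.04 and 3.73 RPKM in whole testis of mouse 178 and 57.2 and 44.9 in its spermatogonia. Csf1r, the receptor that macrophages need for survival, had 0.543, 0.401 and 0.623 RPKM in whole testis of mice 178, 648 and 286 and 2.11, 11.8 and 1.98 in spermatogonia. Aif1, also expressed by germ cells, followed the spermatid genes instead, with 421 RPKM in whole testis and 672 in spermatids of mouse 178, and it made up most of the list's sum of 449 RPKM there. In whole testis of mouse 648 that sum was 31.2 RPKM, and in mouse 286 it was 63.7.

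Genes of late spermatids, the cells that condense their chromatin and elongate, separated the mice more than they separated whole testis from sorted cells. The 16 genes had median differences of 2.35 in mouse 178, 0.66 in mouse 648 and -0.39 in mouse 286, and none passed. The median over the list was 0.88, but -0.2 with the log of the mean RPKM of the gates, 0.09 without the spermatogonia gate and 0.06 without mouse 178. Their sum was 9196 RPKM in whole testis of mouse 178 and 12516 in its spermatids, with 868, 2038 and 265 in spermatogonia, secondary and primary spermatocytes. In mouse 648 it was 249 RPKM in whole testis and 941, 19.9, 339 and 70.4 in the same gates. In mouse 286 it was 97.5 RPKM in whole testis and 986, 14.5 and 320 in spermatids, spermatogonia and secondary spermatocytes. The spermatid gate was thus above whole testis in each mouse, and both were highest in mouse 178.

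Protamines and transition proteins, which replace histones during condensation, gave the clearest contrast between mice. Prm1 had 603 RPKM in whole testis of mouse 178 and 2579 in its spermatids, 0.681 and 0.579 in mouse 648, and 1.16 and 2.14 in mouse 286. Prm2, the most abundant gene of the list, had 2374 RPKM in whole testis of mouse 178 and 1409 in its spermatids, 0.456 and 2.01 in mouse 648, and 1.68 and 2.82 in mouse 286. Tnp1 had 889 RPKM in whole testis of mouse 178 against 1659 in spermatids, and 4 RPKM or less in whole testis of the other mice. In mouse 178 the ratio of whole testis to spermatids had a median of 0.635 over the 16 genes and ranged from 0.234 for Prm1 to 1.68 for Prm2. It was above 1 for 3 genes, Prm2, the sperm mitochondrial capsule gene Smcp (1.3) and the sperm glycolysis gene Gapdhs (1.14). In mice 648 and 286 the median ratio was 0.33 and 0.21, and it was above 1 for Prm1 in mouse 648 (1.18) and for Tnp2 (2.09) and Tssk6 (3.34, with 0.204 against 0.061 RPKM) in mouse 286. A loss of elongated spermatids by sorting was not tested, and the late spermatid sum in whole testis of mice 648 and 286 was far lower than in mouse 178.

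Genes of round spermatids were below the spermatid gate in whole testis for 10 of 10 genes in each mouse, against 48.8%, 46.7% and 39.4% of all genes in mice 178, 648 and 286, with median ratios of whole testis to spermatids of 0.292, 0.325 and 0.15 in mice 178, 648 and 286. Acrv1, a protein of the acrosome that forms at this stage, had 22.2 RPKM in whole testis and 173 in spermatids of mouse 178, 17 and 47.9 in mouse 648, and 8.43 and 86.2 in mouse 286. Against the mean of all gates, the median differences were 0.78, 0.64 and -0.26, and no gene passed. The mean of logs is low for a gene confined to 1 gate, and with the log of the mean RPKM of the gates in its place the median over the list was -0.84 instead of 0.46. The summed list, led by Spata16, was 490, 825 and 456 RPKM in whole testis and 1577, 1353 and 1194 in spermatids.

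**Figure D3:**
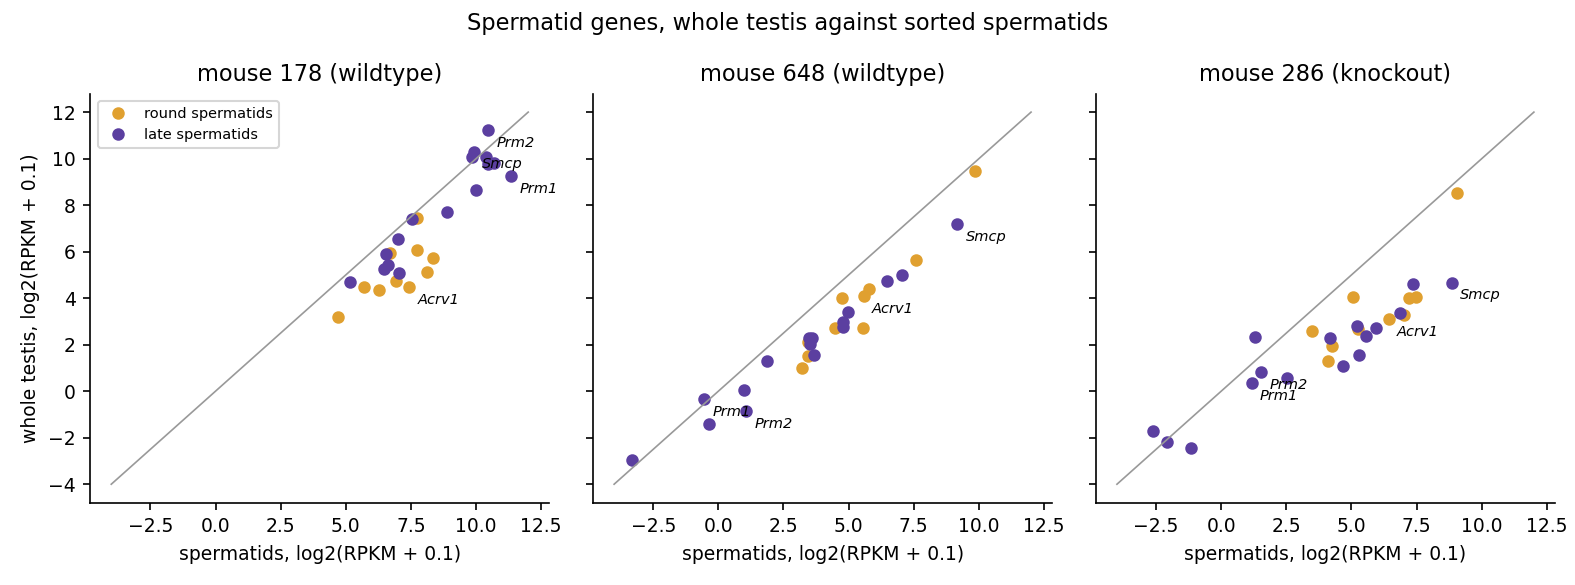
Level of each round and late spermatid gene in whole testis against the spermatid gate of the same mouse, both as log2(RPKM + 0.1); each point is 1 gene and the grey line marks equal levels. Most points lie below the line, and the late spermatid genes have their highest sum in mouse 178, where Prm2 lies above the line with 2374 against 1409 RPKM.

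Meiotic genes differed in sign between the mice. The 15 spermatocyte genes had median differences of -0.61 in mouse 178, 1.08 in mouse 648 and 0.6 in mouse 286, and none passed. Piwil1, which binds small RNAs of meiotic and later germ cells, had 50.4 RPKM in whole testis of mouse 178 and 138 in primary spermatocytes, and 103 and 121 in mouse 648. Mouse 286 had 182 RPKM of Piwil1 in whole testis and at most 28.4 in its 3 sorted gates. Hist1h1t, the linker histone of spermatocytes, likewise had 36.5 RPKM in whole testis of mouse 286 and at most 6.5 after sorting, but 5.54 in whole testis and 53.9 in primary spermatocytes of mouse 178. Both genes had their highest sorted level in primary spermatocytes in mice 178 and 648, and mouse 286 had no such library. Over the list, primary spermatocytes were the highest sorted gate for 5 of 15 genes in mouse 178 (22.8% of all genes) and for 9 of 15 in mouse 648 (14.4%), and spermatogonia were for 8, 1 and 9 of 15 in mice 178, 648 and 286 (37.1%, 47.1% and 39%).

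Sycp3 was high in the spermatogonia gate of mice 178 and 286 but not highest there in mouse 648. This protein of the chromosome axis had 1015 RPKM in spermatogonia of mouse 178 and 329 in its primary spermatocytes, and 697 in spermatogonia of mouse 286. In mouse 648 it had 1714 RPKM in whole testis, 1585 in primary spermatocytes and 444 in spermatogonia. The summed list, led by the cohesin gene Stag3, was 1061 RPKM in whole testis of mouse 178, the lowest of its 5 libraries, and 4974 and 3078 in mice 648 and 286, the highest of theirs.

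Spermatogonial genes were highest in the spermatogonia gate, as were many other genes. They had their highest sorted level there for 13 of 14 genes in mouse 178, 13 of 14 in mouse 648 and 14 of 14 in mouse 286, against 37.1%, 47.1% and 39% of all genes. Most stromal and all mitochondrially encoded genes were highest in the same gate in each mouse, so this is not particular to spermatogonial genes. Kit, the receptor of differentiating spermatogonia, had 1.68 RPKM in whole testis and 51.2 in spermatogonia of mouse 178, 16.5 and 183 in mouse 648, and 4.86 and 128 in mouse 286. The stem and progenitor factor Zbtb16 had 0.606 and 7.05, 1.01 and 15.5, and 1.82 and 8.72 RPKM in the same pairs. The list's sum, led by Uchl1, was 88.3, 116 and 187 RPKM in whole testis and 818, 1131 and 837 in spermatogonia. Its median differences of 0.08, 0.64 and -0.03 were near those of all genes in mice 178 and 286, and no gene passed. This depends on the gates and on how they are averaged: the median over the list was 0.2, but -1.22 with the log of the mean RPKM of the gates (all genes -0.25) and 1.42 without the spermatogonia gate.

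Immediate early genes, which mark the response of cells to handling, did not differ in 1 direction. The 21 genes had median differences of -0.15 in mouse 178, -0.01 in mouse 648 and 1.33 in mouse 286, and none passed. The median over the list was 0.41, but -0.35 with the log of the mean RPKM of the gates and 1.11 without the spermatogonia gate. It was -0.01 with the gates that all 3 mice have, 0.73 without mouse 178 and -0.04 without mouse 286. In mouse 648 their sum was 258 RPKM in whole testis and 2616 in spermatogonia, with 112, 508 and 79.6 in spermatids, secondary and primary spermatocytes. In mouse 178 it was 83.5 RPKM in whole testis and 316 in spermatogonia. In mouse 286 whole testis had the highest sum, 151 RPKM, against 103, 95.4 and 124 in spermatids, spermatogonia and secondary spermatocytes, and it lay above every sorted library for 15 of the 21 genes, as it did for 26.7% of all genes. Spermatogonia had the highest sorted level of 17 genes in mouse 178 and of all 21 in mouse 648 and of 6 in mouse 286, against 37.1%, 47.1% and 39% of all genes.

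Single immediate early genes showed the same split between mice. Egr1, a transcription factor and the most abundant gene of the list, had 16.3 RPKM in whole testis and 90.9 in spermatogonia of mouse 178, 126 and 1305 in mouse 648, and 40.8 and 30.9 in mouse 286. Fos, a subunit of the AP-1 factor, had 7.42 and 62.4, 30.3 and 394, and 27.5 and 19 RPKM in the same pairs. Klf4 differed, with its highest level in spermatids of mouse 178 (61.2 RPKM) and of mouse 286 (65.5). Stromal and Sertoli transcripts were high in the same spermatogonia libraries of mice 178 and 648, and their part in these values was not tested.

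Heat shock and stress genes showed no common direction. The 16 genes had median differences of -0.38, 0.09 and 0.39 in mice 178, 648 and 286, and none passed. The median over the list was -0.1, and 0.2 without mouse 178. The inducible chaperone genes Hspa1a and Hspa1b were at most 1.3 RPKM in all 14 libraries, with that value for Hspa1a in spermatogonia of mouse 648. Hspa8, the constitutive partner of these genes, was highest in spermatogonia in each mouse, at 863, 2346 and 1386 RPKM against 115, 460 and 534 in whole testis. Hmox1, an enzyme that breaks down haem, was positive in all 3 mice (1.05, 0.44 and 0.85, adjusted p = 1). The sum of the list followed its most abundant gene, Hsp90aa1, with 3466, 11024 and 7629 RPKM in whole testis.

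Mitochondrially encoded genes had large differences of opposite sign. All 13 were lower in whole testis than in every sorted library in mouse 178 and 12 of 13 were in mouse 286, against 14% and 12.9% of all genes, while all 13 were positive in mouse 648, as were 53.7% of all genes. The median differences were -2.08, 1.13 and -1.51, and none passed. The list median was -0.9, but -0.28 without mouse 178, -1.89 without mouse 648, -0.49 without mouse 286 and -0.31 without the spermatogonia gate. The sum was 3175 RPKM in whole testis of mouse 178 and 8943, 41015, 13226 and 14758 in spermatids, spermatogonia, secondary and primary spermatocytes. In mouse 648 it was 80898 RPKM in whole testis and 20968, 89990, 29753 and 47028 in the same gates, and in mouse 286 it was 9221 in whole testis and 21567, 76522 and 12865 in its 3 gates. Spermatogonia had the highest sorted level of all 13 genes in each mouse, as they had for 25.3% of all genes, and mt-Co2, a subunit of cytochrome oxidase, was the most abundant. The X chromosome also differed in sign between mice, with median differences over 931 genes of 0.4, 0.21 and -0.74.

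Markers of tissues next to the testis were low. Of 6 epididymis genes 2 were tested, and their median differences were 0.27, 0.25 and -1.58 in mice 178, 648 and 286. Adam7, a protease-like surface protein of the epididymis, had 5.44 RPKM in spermatids, 2.54 in secondary spermatocytes and 0.999 in spermatogonia of mouse 286, but 0.094 in its whole testis. Rnase10, the most abundant of the list, had 1.84, 8.44 and 4.96 RPKM in whole testis and up to 7.86, 14.8 and 6.63 in a sorted gate. Of 6 fat genes 5 were tested, with median differences of 0.18, -0.26 and -1.67, and Adipoq, the fat hormone adiponectin, had 2.28 RPKM in whole testis and 7.77 in spermatids of mouse 178. No gene of either list passed.

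**Figure D4:**
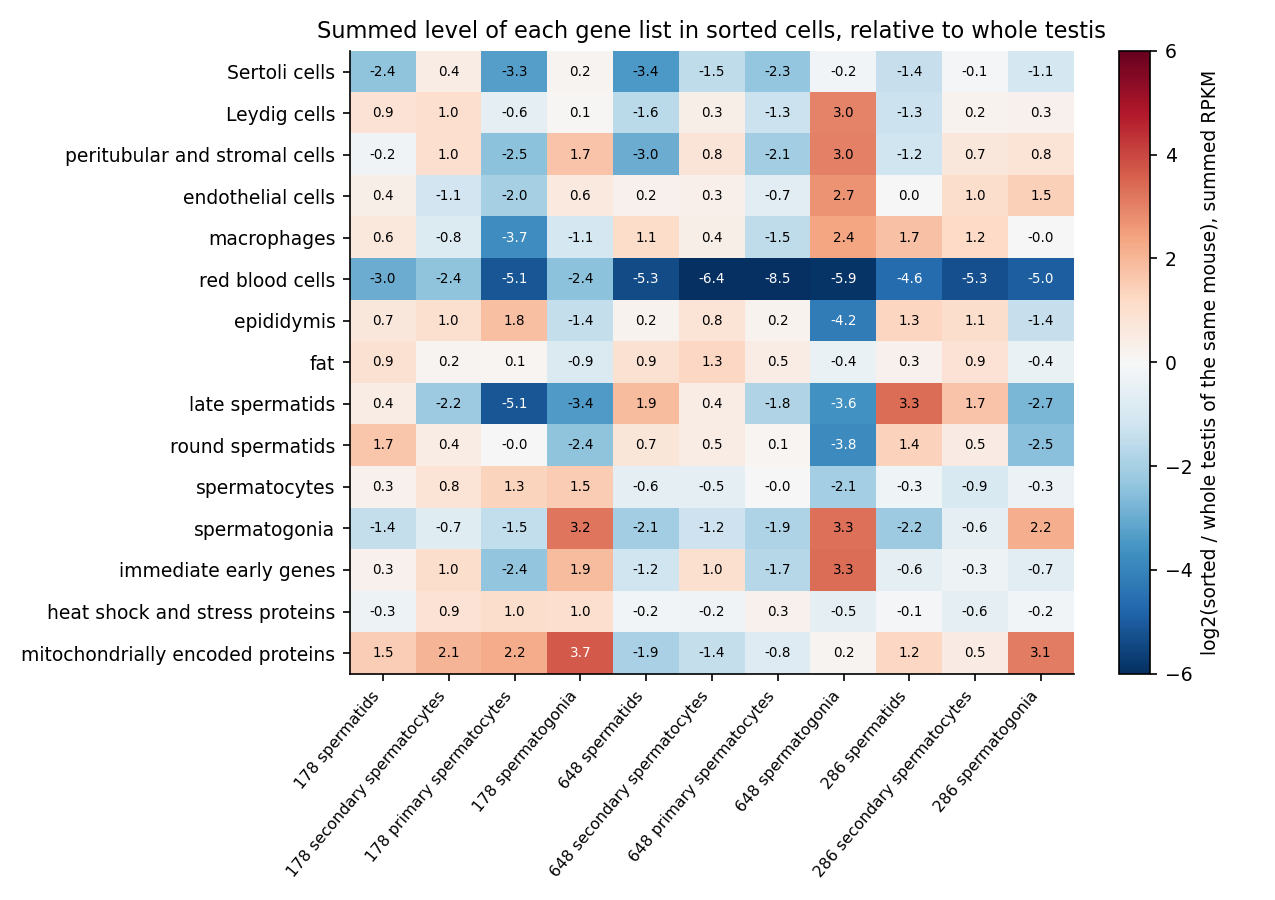
Summed RPKM of each gene list in each sorted library relative to whole testis of the same mouse, as log2 of the ratio; red is higher in the sorted library and blue is higher in whole testis. The red blood cell list is blue in all 11 columns, and the stromal list is red in the spermatogonia column of each mouse, with 2958 against 360 RPKM in mouse 648.

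**Figure D5:**
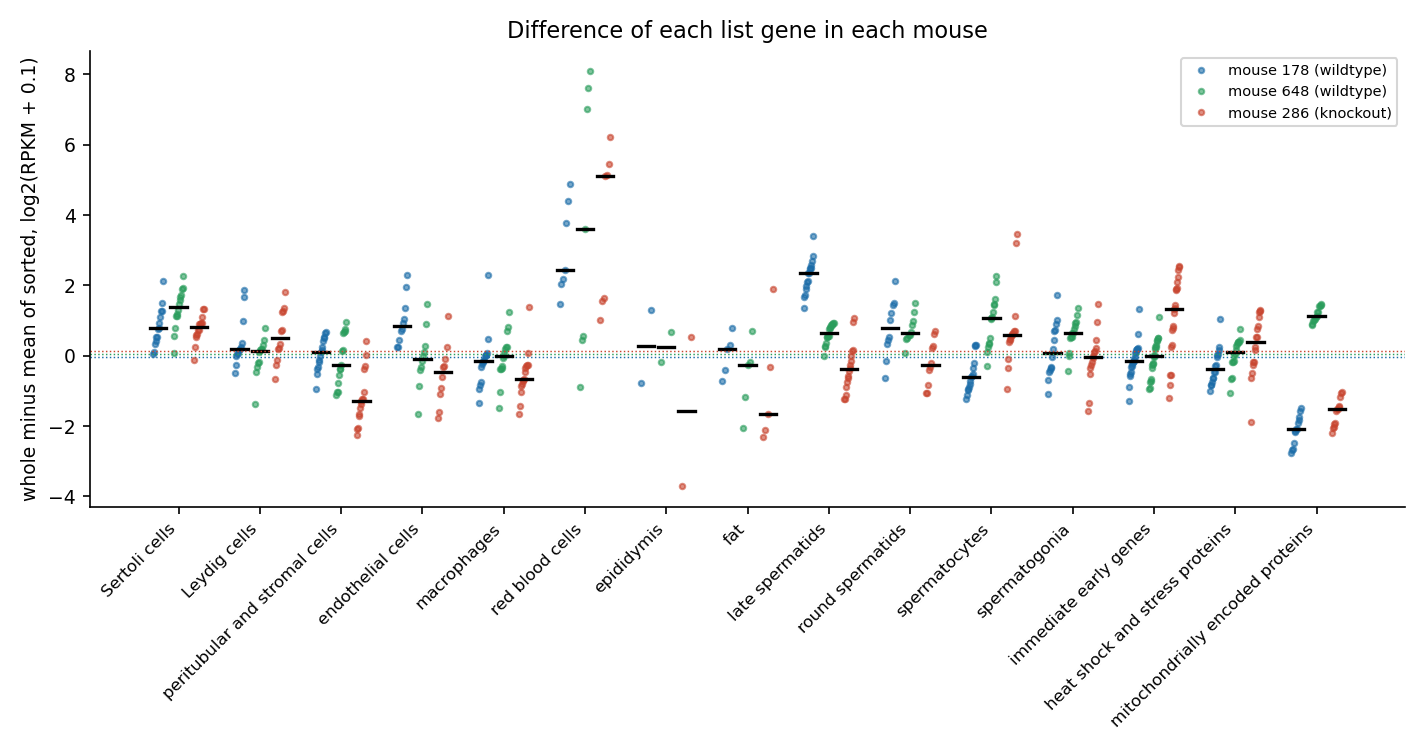
Difference of each tested list gene, whole testis minus the mean of the sorted libraries on log2(RPKM + 0.1), by mouse; each point is 1 gene, black bars are medians and dotted lines are the medians of all genes. Sertoli and red blood cell medians are positive in each mouse, and mitochondrial medians are -2.08, 1.13 and -1.51.

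The genes with the largest differences were also named by rule, whether or not they were in a list. Among protein-coding genes with at least 1 RPKM on the higher side and the same sign in all 3 mice, 1171 were higher and 1197 lower in whole testis, of which 3 and 0 passed, the 3 being Hba-a2, Hbb-bs and Hba-a1. The next 7 higher genes did not pass. 1520401A03Rik came closest, with 10.2, 2.11 and 22.1 RPKM in whole testis of mice 178, 648 and 286 and a mean difference of 2.42 (SE 0.492, adjusted p = 0.05 after rounding, just above the threshold). Primary spermatocytes of mice 178 and 648 had 7.31 and 2.05 RPKM of it. Its largest difference, 3.54, was in mouse 286, which had no such library. Gm26741, a very short transcript, had a mean difference of 2.54 (adjusted p = 0.073) that rested mostly on mouse 286, where it was 4.86. In mice 178 and 648 it had 3.91 and 11.1 RPKM in primary spermatocytes, against 2.24 and 11 in whole testis. Ptgds, which makes prostaglandin D, had 38.9 RPKM in whole testis of mouse 178 and 35.8 in its secondary spermatocytes, but 1.98 RPKM in mouse 648 against at most 0.492 (mean difference 2.32, adjusted p = 0.075). Car7, a carbonic anhydrase, lay above every sorted library in each mouse with 4.45, 3.17 and 8.76 RPKM against at most 2.29, 2.47 and 3.62 (mean difference 2.16, adjusted p = 0.097). Chp2, a calcium-binding protein, Gm3371 and Piwil1 had mean differences of 1.9, 1.88 and 1.87. Gm3371 and Piwil1 had their highest sorted level in primary spermatocytes in mice 178 and 648, the gate that mouse 286 lacks. Gata1, a transcription factor of red cell precursors that Sertoli cells also express, entered by its margin, with 2.71, 2.02 and 6.04 RPKM in whole testis against at most 2.16, 1.44 and 4.59 after sorting.

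No protein-coding gene passed as lower in whole testis, and of the 10 named by size Efemp1, Gm773, Vbp1, Rcan2, Plp2 and Pmp22 had their highest sorted level in spermatogonia in each mouse, as did 25.3% of all genes. The named genes were picked by these same sorted values, so the share of all genes is not a like reference. Efemp1, a matrix protein, had the largest mean difference, -1.61 (adjusted p = 0.78), which rested on mouse 286 (-0.54, -0.49 and -3.81 in mice 178, 648 and 286, and -0.52 without mouse 286), with 0.366, 2.51 and 0.153 RPKM in whole testis and 2.32, 47.4 and 7.36 in spermatogonia of mice 178, 648 and 286. Pmp22, a membrane protein best known from myelin, had 1.5, 9.07 and 2.15 RPKM in whole testis and 26.9, 156 and 23.2 in spermatogonia. Plp2, an X-linked membrane protein, had 0.836, 2.32 and 1.7 RPKM in whole testis and 18.2, 56.5 and 31.9 in spermatogonia. Gm773, Vbp1, Rcan2 and Zfp708 had mean differences of -1.54, -1.5, -1.47 and -1.38, of which Zfp708 peaked in spermatids. Without mouse 286 those of Rcan2 and Zfp708 were -0.45 and -0.35, and those of Pmp22 and Tgfbr3 were -0.72 and -0.63. Without the spermatogonia gate the differences of Efemp1, Gm773, Vbp1 and Rcan2 were -0.82, -0.68, -0.94 and -0.75. Those of Plp2 and Pmp22 were then -0.21 and -0.45, against -1.34 and -1.33 with all gates. Tgfbr3, a co-receptor for growth factors of the TGF-beta family, and the surface protein Cd24a both had a mean difference of -1.22 with all gates. Pmepa1, a regulator of the same signalling family, was below every sorted library in each mouse, with 1.84, 0.329 and 3.45 RPKM in whole testis and at least 3.51, 1.02 and 4.79 after sorting (mean difference -1.49, adjusted p = 0.77). The other genes chosen by margin were Cox11, Incenp, Gpr89 and Spty2d1, with mean differences of -1.04, -0.85, -0.63 and -0.62 and adjusted p = 1 each. Incenp, a part of the complex that guides chromosomes in division, had 14.5, 25.9 and 24.8 RPKM in whole testis and at least 17.9, 30.9 and 36.2 in sorted cells.

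A mixture of the sorted cells alone would lie within their range, so genes outside it in every mouse were counted. For mouse 286 this range leaves out primary spermatocytes, which had no library there. How many genes would lie outside by chance was not worked out. Whole testis was above every sorted library of the same mouse in all 3 mice for 56 genes (0.251% of 22280), of which 41 are protein-coding, and below every one for 48 genes (0.215%), of which 37 are protein-coding. With a margin of at least 1 on the log2 scale these counts were 5 and 3. The 5 genes were chosen after their values were seen and are the 4 haemoglobins and the small nuclear RNA Gm23543, and the 3 are Gm17590, Mir302a and the small nucleolar RNA Gm25791, all but Gm17590 being short RNAs. Within single mice the counts were far larger. Whole testis was above every sorted library for 11%, 4.8% and 26.7% of genes in mice 178, 648 and 286, and below for 14%, 6.85% and 12.9%, where mouse 286 had 1 sorted library fewer.

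The same contrast was made in knockout mice that had only 1 kind of library, 4 with whole testis (214, 269, 273 and 308) and 3 with sorted cells (544, 550 and 614, 7 libraries). Of 22087 genes tested, 249 were higher in whole testis (1.13%) and 17 were lower (0.077%), with a smallest adjusted p of 0.0349. This fit took the 11 libraries as independent although they came from 7 mice, with 4 sorted libraries from mouse 544 and 2 from mouse 550. With the mouse as a random replicate block, chosen after seeing the data, libraries of a mouse had a correlation of 0.52 and no gene passed (0 each way, smallest adjusted p 0.0986, 3932 genes at an unadjusted p under 0.05), so none of the calls below holds once the shared mice are taken into account. Without the block, 8 of 14 Sertoli genes passed as higher in whole testis, namely Clu, Wt1, Gata4, Cldn11, Inha, Inhbb, Ctsl and Kitl, and all 14 were positive with a median of 2.82. Clu had 613, 1043, 572 and 1605 RPKM in whole testis of mice 273, 269, 214 and 308 and 25.2 to 202 in 6 of the 7 sorted libraries, but 564 in spermatogonia of mouse 544 (difference 3.31, SE 0.376, adjusted p = 0.035). Hba-a2 and Hbb-bs also passed without the block, with differences of 6.1 and 6.82 (adjusted p = 0.039 each), and their 4-gene sum was 43.5, 147, 7.38 and 521 RPKM in whole testis against 0 to 4.55 after sorting. Spermatid genes lay on the other side without passing. Late spermatid genes had a median of -2.9 with 0 of 16 positive, and round spermatid genes had -2.17 with 1 of 10 positive. Leaving out 1 mouse gave medians of -4.27 to -1.29 for late and -3.03 to -0.87 for round spermatid genes, the weakest without mouse 308. The late spermatid sum was 18243, 56.8, 14340 and 17 RPKM in whole testis of mice 273, 269, 214 and 308, and the part of these levels in the Sertoli result was not tested. Of the other lists, Hsd17b3, Sparc, Mrc1 and Ddit4 passed, and no meiotic, spermatogonial, immediate early or mitochondrial gene did. These calls also rested on which mice were included. No gene passed without mouse 214, 269, 308, 544 or 550 (0 each way), with 2120 to 5790 genes at an unadjusted p under 0.05, and 1 gene passed without mouse 614. Spermatids and spermatogonia came from mouse 544 alone, whose spermatogonia held late spermatid genes at a sum of 18829 RPKM, above the 14585 of its spermatids.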

How the data were processed

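The authors sequenced polyA RNA as paired-end reads, aligned it with TopHat2 and deposited RPKM values per Ensembl transcript. Of 94480 transcripts, 90339 (95.6%) were matched to GENCODE M21 (GRCm38) and summed to 37122 genes. Missing values (865 transcripts in mice 178 and 286, and 2828 in mouse 648) were counted as 0, and no tested gene lacked all values in mouse 648. Testing was limited to genes that averaged 0.1 RPKM or more in the 14 libraries, and the pseudocount was 0.1 RPKM. Depth was estimated from the steps of low values.

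One difference per mouse was fitted with limma 3.58.1 in R 4.3.3 (intercept only, eBayes with a trend on mean expression, two-sided, Benjamini-Hochberg adjustment, threshold 0.05), after the fit was tested on simulated data. The prior degrees of freedom were 36.9. Whole and sorted libraries are paired by the mouse number in the labels. On values centred by library type, each whole library had a mean correlation of 0.39, 0.5 and 0.24 with its own sorted libraries in mice 178, 648 and 286, and of -0.25, -0.27 and -0.07 with those of other mice. Centring over the same mice makes the second set tend to be negative where the first is positive, so it is no separate observation. Knockout mice with only 1 kind of library were fitted by group means, with whole testis against the mean of the 4 gates and no mouse term, so libraries of a mouse counted as independent. A fit with the mouse as a random replicate block (duplicateCorrelation) was added after seeing the data. Mouse 613 was left out there because its values did not fall on whole reads.

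The named genes were, in each direction, the 10 protein-coding genes with the largest mean difference among those past the threshold, with the same sign in all 3 mice and at least 1 RPKM on the higher side in every mouse, filled up with genes that did not pass, and the 5 with the largest smallest margin between whole testis and the nearest sorted library. The 15 lists hold 194 genes, of which Oaz3 was not in the table and Cyr61 was matched as Ccn1. Members and lists were chosen with earlier results of these data known, and no list was tested. A listed gene is not reported here. The alternatives were other pseudocounts, filters, scalings, gate sets and fits, and leaving out each mouse. A robust prior for the spread was added after seeing the data.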

Additional observations from a re-analysis of the deposited data

Results flagged for a closer look

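Among the 5 knockout whole testes (mice 214, 269, 273, 286 and 308), mouse 308 stood far above the others in 3 of the 15 lists compared, by a gap larger than 0.71 of the group's range, which chance gives in about 1 of 20 groups. Its spermatogonial genes summed to 518 RPKM against 114 to 203 in the other 4. Its immediate early genes summed to 791 RPKM against 113 to 175. Its mitochondrially encoded genes summed to 35956 RPKM against 2320 to 10220. In the same library stromal genes summed to 1221 RPKM against 337 to 649, Sertoli genes to 2254 against 747 to 1473 and red blood cell genes to 528 against 17 to 262, while late spermatid genes had their lowest sum, 17 against 56.8 to 18243.

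Mouse 286 had a median difference opposite in sign to both mice 178 and 648 in 5 lists, and none of these differences was tested. The medians of mouse 286 were -1.58 for epididymis (0.27 and 0.25 in mice 178 and 648), -0.39 for late spermatids (2.35 and 0.66), -0.26 for round spermatids (0.78 and 0.64) and -0.03 for spermatogonia (0.08 and 0.64). For immediate early genes it was 1.33 (-0.15 and -0.01). An opposite sign was not particular to mouse 286. Mouse 178 had it for stromal genes (0.1, against -0.25 and -1.3 in mice 648 and 286) and endothelial genes (0.84, against -0.08 and -0.46). It also had it for fat (0.18, against -0.26 and -1.67), spermatocyte (-0.61, against 1.08 and 0.6) and heat shock genes (-0.38, against 0.09 and 0.39). Mouse 648 had it for mitochondrially encoded genes. The epididymis median covers 2 tested genes of opposite sign in mouse 286, Rnase10 (0.54) and Adam7 (-3.7). Mouse 286 was the only knockout, so genotype and individual mouse cannot be told apart, and it had no primary spermatocyte library. With the gates that all 3 mice have, the medians over the 3 mice were -0.26 for epididymis (main value -0.36) and 0.48 for late spermatids (0.88). They were 0.19 for round spermatids (0.46), -0.19 for spermatogonia (0.2) and -0.01 for immediate early genes (0.41). Medians of single mice with these gates are not given here.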

How the results depend on the processing

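The counts of genes higher and lower in whole testis (4 and 1) changed under many alternatives. They were 2 and 0 with no filter on low values, 19 and 2 with a mean of at least 1 RPKM, 24 and 7 with the gates that all 3 mice have, and 7 and 3 with a robust prior, which was chosen after seeing the data. With pseudocounts of 0.01 and 1 RPKM the lower count was 4 and 0, with quantile normalization 0, with the highest transcript of each gene 4 and without the spermatogonia gate 0. Leaving out 1 mouse gave 0 to 17 higher and 0 to 3 lower genes, with 0 of both without mouse 178. As a replicate block in a fit of the 14 libraries, the mouse gave 4 and 1, the same 5 genes, and with no replicate block 3 and 1, of which 4 were among those 5. The fits with a mean of at least 1 RPKM and without mouse 648 or 286 took the spread as common to all genes of a level, and in the first of these 13 of 21 called genes had the same sign in every mouse. The cause of the other changes was not tested.

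In the other knockout mice (249 and 17) no gene passed in either direction (0 and 0) with mouse 613, with quantile normalization or with the mouse as a random replicate block, the last chosen after seeing the data. A pseudocount of 1 RPKM gave 161 and 40, and one of 0.01 RPKM gave 5 lower genes. Leaving out 1 mouse gave 0 to 483 higher and 0 to 26 lower genes, the most without mouse 273.

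Genes outside the range of the sorted libraries (56 above and 48 below) numbered 5 and 3 with a margin of at least 1, and 178 to 506 above and 291 to 350 below with 1 mouse left out.

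Of 240 alternative values of the list medians, 223 stayed within the spread between mice, which is wide, and 28 over 12 lists differed in sign from the main value, 21 of them within that spread. Among these 21 were late spermatids (-0.2, main value 0.88) and immediate early genes (-0.35, 0.41) with the log of the mean RPKM of the sorted libraries, and epididymis (0.15, -0.36) and fat (0.32, -0.63) with a mean of at least 1 RPKM. Without mouse 178 the spermatocyte median was 0.76 instead of 0.24, but it was -0.01 without mouse 648 and 0.01 without mouse 286. Leaving out mouse 178 also gave medians of 0.25 for round spermatids (main value 0.46), 0.33 for spermatogonia (0.2) and -0.67 for epididymis (-0.36). With the log of the mean RPKM of the sorted libraries, which moved the median of all genes from 0.07 to -0.25, the medians were -0.48 for Leydig cells (main value 0.12), -1.3 for peritubular and stromal cells (-0.57), -1.41 for macrophages (-0.15), -0.84 for round spermatids (0.46), -1.22 for spermatogonia (0.2) and -0.52 for heat shock and stress proteins (-0.1). Without the spermatogonia gate they were 0.55 for Leydig cells, 0.33 for peritubular and stromal cells, 0.21 for macrophages, -0.6 for round spermatids and 1.42 for spermatogonia. With the gates that all 3 mice have they were -0.51 for macrophages and -0.19 for spermatogonia. The Sertoli median was 0.53 instead of 0.96 with a pseudocount of 1 RPKM. The red blood cell median (3.72) was 5.81 and 1.62 with pseudocounts of 0.01 and 1 RPKM and 5.7 with a mean of at least 1 RPKM.

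Of 79 alternative values of the 5 called genes, 19 no longer passed, 10 of them for Hbb-bt, 5 for Gm17590, 2 for Hba-a1 and 1 each for Hba-a2 and Hbb-bs. Of 352 values of the 22 named genes that did not pass, 339 did not pass either and 13 did. No value of these genes changed sign. Depth limits genes near 0.1 RPKM most, where a value rests on few reads.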
